A study of Canis lupus familiaris with 40 samples.

Results

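ENSCAFG00000000426 is 1 of the 24580 Ensembl gene identifiers in the count, CPM and TPM tables of RNA sequenced from flow-sorted blood cells of dogs. It was chosen from these tables because it held more counts than any other gene in every monocyte and M-MDSC library, so its level in these cells relative to neutrophils is described here without a test. The same choice favoured a like level in all monocyte and M-MDSC libraries, which limits every comparison that uses them. The tables did not pair identifiers with gene names, 0 of the 24580 identifiers were found in the RefSeq gene table used here, and the gene is therefore called by its identifier, with no symbol, position or sequence. Monocytic myeloid-derived suppressor cells (M-MDSC, n = 5) and polymorphonuclear ones (PMN-MDSC, n = 9) came from tumor-bearing dogs, as did the monocytes labelled C Mono (n = 8) and the neutrophils labelled C PMN (n = 10). Healthy dogs gave the monocytes labelled H Mono (n = 3) and the neutrophils labelled H PMN (n = 5). In the study's gates all cells were CD5-, CD21- and CD11b+, monocytes were MHC II+ and CD14+, M-MDSC were MHC II-, CD14+ and CADO48A-, and PMN-MDSC were MHC II-, CD14- and CADO48A+. CADO48A is an antibody to a canine neutrophil antigen. Monocytes and both MDSC subsets were sorted from the low-density mononuclear layer, and PMNs, which were MHC II- and CADO48A+, from the dense pellet. The labels give no tumor type, breed, age or dog for a library, and place 1 more library in PMN-MDSC and in C PMN than the design text counts. The study's text compares PMN-MDSC with PMNs of the same patient, so some libraries of these populations appear to come from the same dogs. Which ones was not given, and the p-values below treat libraries as independent and measure the spread between them.

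Monocytes and neutrophils arise from shared myeloid progenitors in the bone marrow and circulate as the main phagocytes of the blood. Neutrophils contain less RNA per cell than monocytes. MDSC are immature or diverted cells of either lineage that suppress T cells, and PMN-MDSC are separated from ordinary neutrophils mainly by their low density. The study tested suppression of T cells for PMN-MDSC and not for M-MDSC, which it calls putative. An Ensembl identifier stands for a gene model, and the defining markers of each population could not be looked up without names. In bulk RNA, fewer cells of a type and less RNA per cell cannot be told apart.

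Depth ranged from 4229857 to 60473238 counts on genes per library. Only C PMN replicate 7 and PMN-MDSC replicate 9 were under 10000000, and in these the 10 largest genes held 63.9% and 58.7% of counts, against 10.7% to 28.9% in the other 38 libraries. In them, 3470 and 3959 genes reached 10 counts, as did 9480 to 12466 in each deeper library. Some results that rest on these shallow libraries are also given without them. The other results include them. Library names carried the prefix GAR4079 or PAT4694, whose meaning is not stated. PAT4694 marked 4 C Mono, 2 M-MDSC, 4 C PMN and 4 PMN-MDSC libraries and no library of healthy dogs. Both shallow libraries carried PAT4694. ENSCAFG00000000426 had 2005 to 2237522 counts per library. The 95% exact binomial interval of its share was within 4.40% of the value in C PMN replicate 7 and within 0.808% in the 38 deeper libraries. These intervals cover counting error only.

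ENSCAFG00000000426 held between 2.42% and 5.61% of all counts in the 16 monocyte and M-MDSC libraries and ranked 1 by counts in 16 of 16. In H Mono its share was 2.90%, 3.48% and 4.64% (3.67% ± 0.885, SD, n = 3). In C Mono it ran from 2.48% to 5.40% with a median of 3.98% (3.90% ± 0.883, SD, n = 8). The 5 M-MDSC libraries had shares of 2.42%, 3.04%, 4.43%, 4.91% and 5.61% (4.08% ± 1.32, SD, n = 5). The 3 populations overlapped almost completely, the range of H Mono lying within those of C Mono and M-MDSC. In each of the 16 libraries the gene led the one in the next place. In the library with the smallest lead the ratio was 1.42, and in the library with the largest it was 3.56 (2.22 ± 0.646, SD, n = 16). ENSCAFG00000018101 was the gene in the next place in 11 of these libraries, ENSCAFG00000014388 in 4 and ENSCAFG00000016020 in 1.

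**Figure D1:**
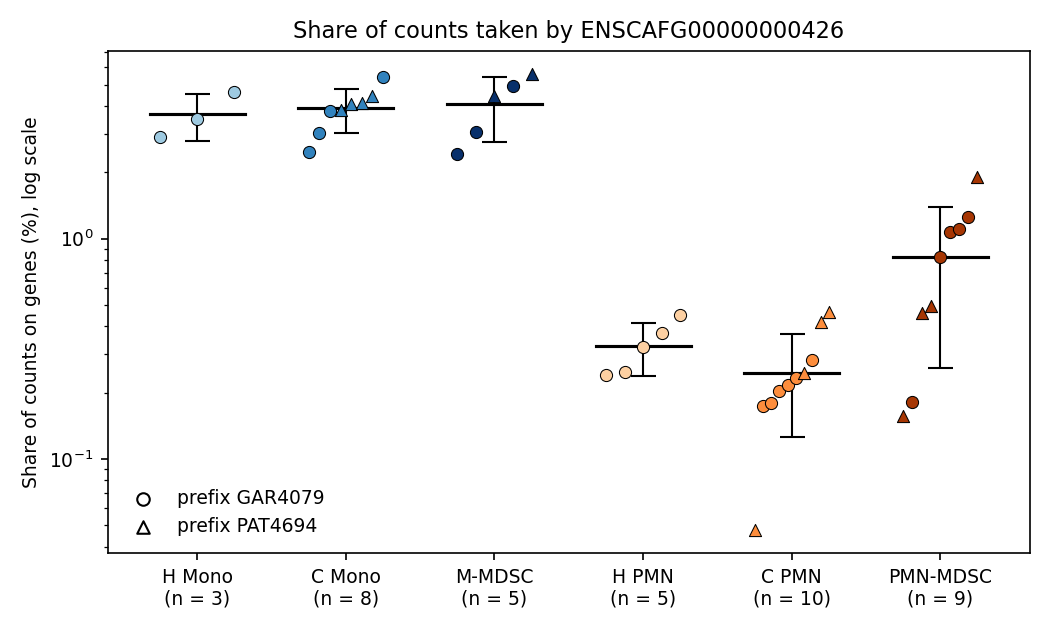
Share of counts on genes taken by ENSCAFG00000000426 (percent, log scale) in each of 40 libraries, by population. Points are libraries, circles carry the name prefix GAR4079 and triangles PAT4694, and lines with bars give mean ± SD. The 16 Mono and M-MDSC libraries lie between 2.42% and 5.61%, all above the highest of the 24 PMN and PMN-MDSC libraries at 1.90%, and PMN-MDSC libraries spread from 0.157% to 1.90%.

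The top place of ENSCAFG00000000426 held on the scale of counts and not on that of TPM, which divides counts by the length of the gene. By TPM the gene ranked 1 in 4 of the 16 libraries (3 M-MDSC and 1 C Mono), ranked 2 in 11 and had the rank of 4 in 1 C Mono library. Its TPM was 21483 ± 4632 (SD, n = 3) in H Mono, 22183 ± 4598 (SD, n = 8) in C Mono and 24223 ± 8008 (SD, n = 5) in M-MDSC. ENSCAFG00000018101 had the highest TPM in 11 libraries and ENSCAFG00000013633 in the remaining 1. The ratio of CPM to TPM gives the length the authors used for a gene relative to another, and over 699 genes with at least 100 counts in every library these ratios did not vary between libraries. By this measure the gene model of ENSCAFG00000000426 was 2.68 times as long as that of ENSCAFG00000018101, 1.48 times the median of 22366 genes with a count, and longer than 63.7% of them. Over the 16 libraries ENSCAFG00000018101 had a mean TPM of 25603 ± 6441 and ENSCAFG00000000426 one of 22689 ± 5571 (SD, n = 16 each). These levels overlapped between libraries, but within libraries ENSCAFG00000018101 had the higher TPM in 11 of 16. The mean share of ENSCAFG00000018101 was 1.87% ± 0.408 (SD, n = 8) in C Mono and 1.23% ± 0.270 (SD, n = 5) in M-MDSC.

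**Figure D2:**
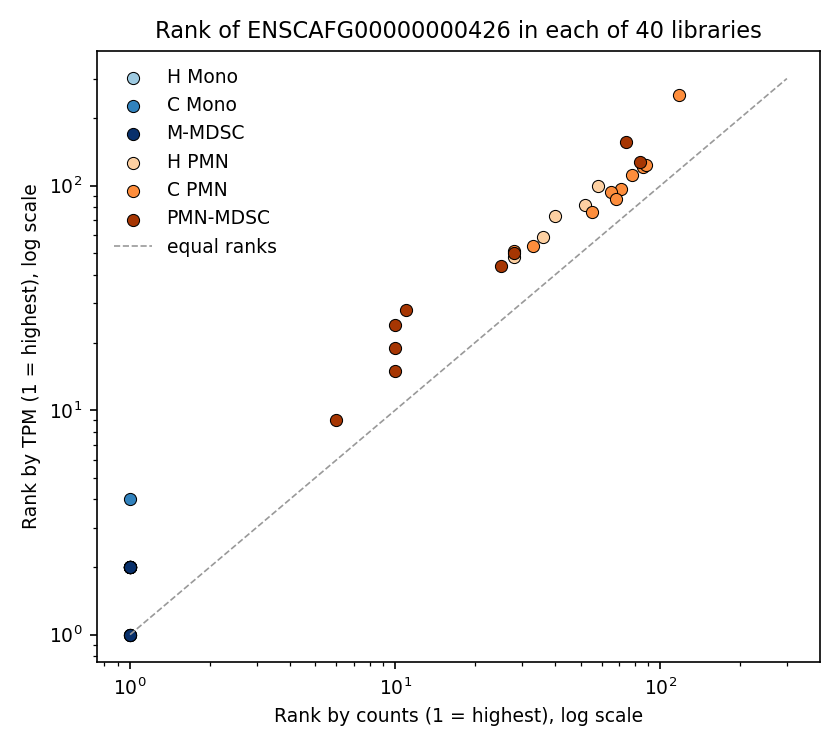
Rank of ENSCAFG00000000426 among 24580 genes by counts (horizontal) and by TPM (vertical), both on log scales with 1 as the highest, in each of 40 libraries coloured by population; the dashed line marks equal ranks. All 16 Mono and M-MDSC libraries lie at rank 1 by counts, where many points coincide, and between ranks 1 and 4 by TPM, while PMN-lineage libraries run from rank 6 to 118 by counts and from 9 to 254 by TPM.

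ENSCAFG00000000426 was also abundant in neutrophils. In H PMN its share was 0.240%, 0.249%, 0.321%, 0.373% and 0.451% (0.327% ± 0.0884, SD, n = 5), with ranks by counts from 28 to 58. In C PMN the share ran from 0.0474% to 0.466% with a median of 0.224% (0.246% ± 0.121, SD, n = 10), with ranks from 28 to 118. In PMN-MDSC it ran from 0.157% to 1.90% with a median of 0.824% (0.828% ± 0.569, SD, n = 9), with ranks from 6 to 84. The gene was therefore among the 100 largest in 23 of 24 PMN-lineage libraries, the exception being C PMN replicate 7, and among the 10 largest in 4, all of them PMN-MDSC. The mean share in H Mono was 11.2 times that in H PMN, the mean in C Mono 15.9 times that in C PMN, and the mean in M-MDSC 4.93 times that in PMN-MDSC. On TPM the ratio for C Mono was 14.1 and that for M-MDSC 4.70. No library of the monocyte lineage overlapped with any of the PMN lineage, a separation that the choice of the gene favoured.

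The populations stood in the order M-MDSC, C Mono, H Mono, PMN-MDSC, H PMN and C PMN by mean share. The 3 places at the top overlapped in range, and so did the 3 at the bottom, where 6 of 9 PMN-MDSC libraries were above every C PMN library and 7 were above every H PMN library. The gap between the 3 at the top and the 3 at the bottom ran from 1.90%, the highest PMN-MDSC library, to 2.42%, the lowest M-MDSC library.

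The other large genes of monocytes had quite different levels in the PMN lineage, taken here as neutrophils and PMN-MDSC together. The ratios below are therefore not ratios to neutrophils alone. As an example, ENSCAFG00000022723 had a mean share of 0.133% in PMN-MDSC, 0.0256% in C PMN and 0.00835% in H PMN. Of the 10 genes with the largest mean share over the 16 monocyte and M-MDSC libraries, 3 had a mean share there at least 50 times that over the 24 PMN-lineage libraries, and 3 had less than 2 times. ENSCAFG00000000426, at 8.13 times, was with the other 3 between these limits. ENSCAFG00000018101, the next in order, had 1.65% ± 0.429 (SD, n = 16) of counts in the monocyte lineage and a mean of 0.00949% in the PMN lineage, a ratio of 174. Its highest share in a PMN-lineage library, 0.0468%, was below the lowest of ENSCAFG00000000426, 0.0474%.

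**Figure D3:**
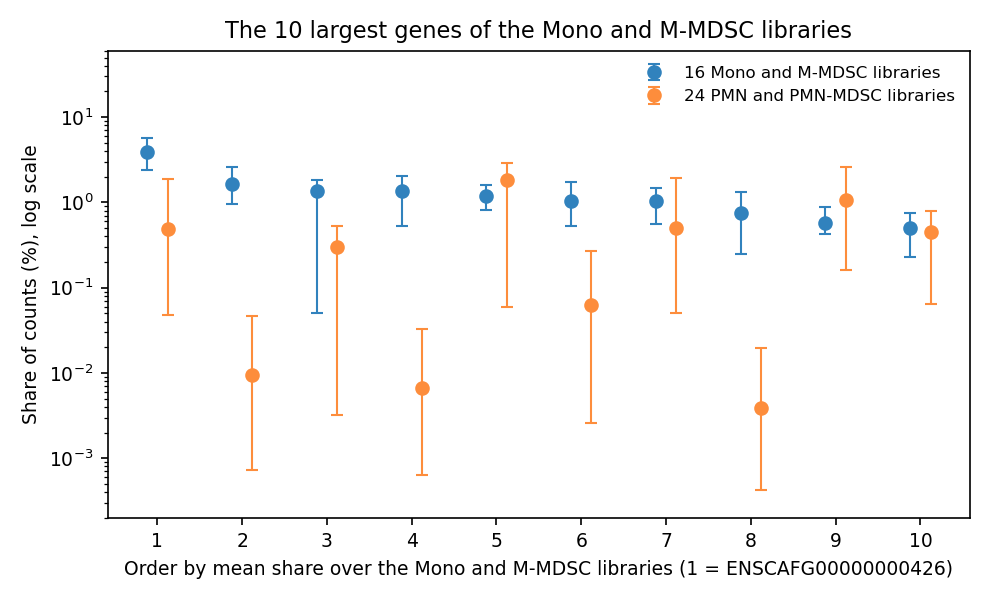
Share of counts (percent, log scale) of the 10 genes with the largest mean share over the 16 Mono and M-MDSC libraries, in order of that mean; points are means and bars run from the lowest to the highest library, for the 16 Mono and M-MDSC libraries and the 24 PMN and PMN-MDSC libraries. ENSCAFG00000000426, at place 1, has a mean of 3.92% and of 0.481%, and at place 2 ENSCAFG00000018101 has 1.65% and 0.00949%.

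Within the monocyte lineage, ENSCAFG00000000426 did not pass the test in any of 3 comparisons. The gene was chosen for leading all of these libraries, which favours small differences between them, so a missed threshold here is no evidence that the populations were alike. The comparisons asked whether M-MDSC differed from conventional monocytes, and monocytes of tumor-bearing from those of healthy dogs. Counts of the populations compared were scaled by TMM and fitted over all genes with the quasi-likelihood test of edgeR. TMM sets libraries to a common level of the bulk of genes. The p-values were adjusted over all genes tested. Between M-MDSC and C Mono the log2 fold change was 0.13 (SE 0.24, 95% interval -0.39 to 0.64, adjusted p = 0.869 from edgeR), in a comparison in which 0.758% of genes tested were called at an adjusted p of at most 0.05. Between M-MDSC and H Mono it was 0.24 (SE 0.33, interval -0.50 to 0.99, adjusted p = 0.90 from edgeR), with 0.234% of genes called. Between C Mono and H Mono it was 0.11 (SE 0.24, interval -0.41 to 0.64, adjusted p = 0.946 from edgeR), with 0% called and 929 of 12566 genes at an unadjusted p under 0.05. DESeq2 and limma voom did not call the gene in any of these 3 comparisons either. The intervals reach up to 0.99 on the log2 scale. The share of counts, which uses no scaling between libraries, differed in the same comparisons by 0.179, 0.412 and 0.233 percentage points (two-sided exact permutation tests, p = 0.766, 0.714 and 0.739, each 0.766 adjusted over 6 tests).

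Within the monocyte lineage the spread of the gene between libraries was larger than that of most of the 500 highest genes, though not than that of the genes nearest to it in share. Over the 16 libraries the CV of its share was 25%, and 7 of the other 9 genes among the 10 largest had a larger CV, of 26.0% to 36.7%. In C Mono the SD of its log2 CPM was 0.40, against a median of 0.29 for the 500 highest genes, and 73.9% of these had a smaller SD. In M-MDSC the SD was 0.57 against a median of 0.37, and 84.8% of the 500 had a smaller one. Both values were below the median over all 14467 genes compared, which was 0.53 in C Mono and 0.63 in M-MDSC. In C Mono the spread also differed by the prefix of the library name, which was not tested. The 4 C Mono libraries with the prefix PAT4694 lay close together, at 3.85%, 4.10%, 4.13% and 4.44%, whereas the 4 with GAR4079 had 2.48%, 3.02%, 3.80% and 5.40%. PMN-MDSC libraries with PAT4694, the shallow replicate 9 among them, ran from 0.157% to 1.90%, and those with GAR4079 from 0.181% to 1.26%. Averaged over C Mono and M-MDSC, the difference between prefixes, PAT4694 less GAR4079, was 0.28 on the log2 scale (SE 0.37, adjusted p = 1.0 from edgeR), and neither prefix gave a call between M-MDSC and C Mono. With GAR4079 alone that log2 fold change was -0.028 (SE 0.41, adjusted p = 0.999 from edgeR), and with PAT4694 alone it was 0.33 (SE 0.15, adjusted p = 0.335 from edgeR).

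The level of ENSCAFG00000000426 was also set beside genes that mark each lineage in these data. A list of 50 Mono-restricted genes was drawn from H Mono and H PMN libraries, as the highest genes with at least 50 CPM in H Mono and 50 times less in H PMN, which excluded ENSCAFG00000000426 at 11.2 times. The summed share of this list was 9.57% to 13.0% in C Mono and 6.41% to 9.09% in M-MDSC, with no overlap. A list of 50 PMN-restricted genes made in the same way had 0.0301% to 0.202% in C Mono and 0.278% to 0.487% in M-MDSC, again with no overlap. The ratio of ENSCAFG00000000426 to the Mono-restricted list was 0.194 to 0.565 in C Mono (median 0.320) and 0.304 to 0.692 in M-MDSC (median 0.583). In 3 of the 5 M-MDSC libraries the ratio was above every C Mono library. H Mono and C Mono were sorted as MHC II+, whereas H PMN and M-MDSC were sorted as MHC II-. Both lists may therefore hold genes that follow this gate. Its part in the differences between M-MDSC and C Mono cannot be told apart and was not tested.

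In the PMN lineage, ENSCAFG00000000426 was higher in PMN-MDSC than in C PMN. This comparison asked whether low-density PMN-MDSC differed from neutrophils of the dense pellet in tumor-bearing dogs. On TMM-scaled CPM the 10 C PMN libraries lay between 2153 and 4578 (median 3084) and the 9 PMN-MDSC libraries between 1996 and 18120 (median 10787). PMN-MDSC replicate 3 was the lowest of all 19, PMN-MDSC replicate 8 at 4450 also lay within the range of C PMN, and the other 7 were above every C PMN library. The log2 fold change was 1.56 (SE 0.38, 95% interval 0.77 to 2.35, adjusted p = 0.0116 from edgeR), a change of 2.95-fold with an interval of 1.71 to 5.10. Of the 10278 genes tested, 10% were called, 84.4% of them higher in PMN-MDSC, and with scaling to library size alone 99.3% of the called genes were higher. The median change of all genes was -0.02 with TMM and 0.20 with library size alone, and ENSCAFG00000000426 lay 1.58 and 1.55 above it, respectively. The share of counts differed by 0.582 percentage points (0.828% in PMN-MDSC and 0.246% in C PMN, two-sided exact permutation test, n = 9 and 10, p = 0.00442, 0.0265 adjusted over 6 tests).

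The call between PMN-MDSC and C PMN did not rest on the shallow libraries or on a single library in the edgeR fit. Without C PMN replicate 7 and PMN-MDSC replicate 9 the log2 fold change was 1.55 (SE 0.34, adjusted p = 0.00467 from edgeR), and over the 19 fits that each left out 1 library it ranged from 1.39 to 1.70. With prefix GAR4079 alone it was 1.79 (SE 0.40, adjusted p = 0.0124 from edgeR), and with PAT4694 alone it was 1.37 (SE 1.05, adjusted p = 1.0 from edgeR), where each population had 4 libraries. Among each of these 4 was the shallow library of its population. The test on shares was less stable. Without any one of PMN-MDSC replicates 1, 2, 4, 5 and 6 its adjusted p was 0.0557 to 0.0559, by an exact permutation test with differences of 0.448 to 0.583 percentage points. With both shallow libraries left out, the difference in share was 0.644 percentage points (adjusted p = 0.0128, exact permutation test).

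**Figure D4:**
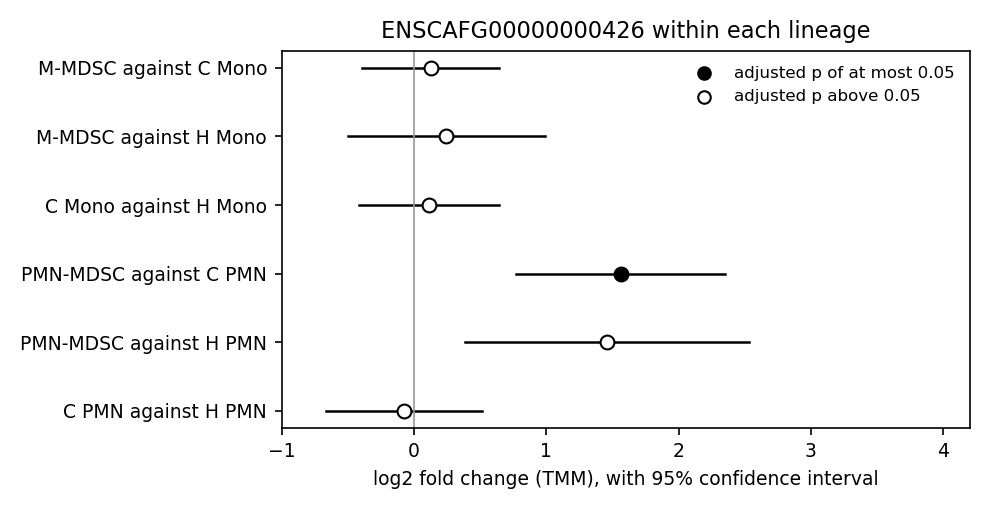
Log2 fold change of ENSCAFG00000000426 in the 6 comparisons within a lineage (horizontal axis, edgeR with TMM scaling), with 95% confidence intervals; filled points have an adjusted p of at most 0.05. The change between PMN-MDSC and C PMN, 1.56, is the only filled point, and the 3 comparisons of the monocyte lineage lie between 0.11 and 0.24.

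Against H PMN the estimate was of similar size and did not pass the threshold. The log2 fold change between PMN-MDSC and H PMN was 1.46 (SE 0.51, interval 0.38 to 2.53, adjusted p = 0.0752 from edgeR), in a comparison in which 9.26% of genes were called, 78.2% of them higher, or 90.7% with library size alone. DESeq2's Wald test gave 1.57 (adjusted p = 0.00531 from DESeq2) and limma voom 1.48 (adjusted p = 0.000765 from limma). Without PMN-MDSC replicate 3 the edgeR fit gave 1.60 (adjusted p = 0.0238 from edgeR), and without the shallow replicate 9 it gave 1.44 (adjusted p = 0.0349 from edgeR). The share of counts was 0.502 percentage points higher, which did not pass the test (two-sided exact permutation test, n = 9 and 5, p = 0.0659, 0.198 adjusted over 6 tests). With the shallow replicate 9 left out, the difference in share was 0.585 percentage points (adjusted p = 0.0793, exact permutation test). Between C PMN and H PMN the log2 fold change was -0.07 (SE 0.28, interval -0.66 to 0.52, adjusted p = 0.964 from edgeR), with 0% of genes called and 1002 at an unadjusted p under 0.05. DESeq2 and limma voom did not call the gene in that comparison. The median change of all genes was 0.16 between PMN-MDSC and H PMN with TMM and 0.02 with library size alone, and ENSCAFG00000000426 lay 1.30 and 1.32 above it. Between C PMN and H PMN these medians were 0.09 and -0.27, and the gene differed from them by -0.17 and -0.14. Both contrasts with PMN-MDSC use the same PMN-MDSC libraries.

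Scaling placed the shallow libraries differently among their peers. PMN-MDSC replicate 9 had the lowest share of its population, 0.157%, and a TMM-scaled CPM of 10839, above the median of 10787. C PMN replicate 7 had the lowest share of all 40 libraries, 0.0474%, and a TMM-scaled CPM of 3260, within the range of the other C PMN libraries. Across PMN-MDSC libraries the SD of log2 CPM was 0.97, against 0.38 in C PMN and 0.42 in H PMN. Without the shallow libraries it was 1.03 in PMN-MDSC, where 83.2% of the 500 highest genes had a smaller SD, and 0.40 in C PMN, where 33.3% did. Libraries of PMN-MDSC thus covered a range of 9.08-fold on TMM-scaled CPM, and those of C PMN one of 2.13-fold.

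In PMN-MDSC the Mono-restricted genes had larger shares in most of the libraries in which ENSCAFG00000000426 did. The summed share of the 50 Mono-restricted genes was 0.0270% to 0.351% in C PMN (median 0.0911%) and 0.0596% to 1.23% in PMN-MDSC (median 0.764%). The 5 PMN-MDSC libraries with the most ENSCAFG00000000426, at 0.824% to 1.90%, had list shares of 0.764% to 1.23%, and PMN-MDSC replicate 3, at 0.181%, had the lowest list share of its population, 0.0596%. PMN-MDSC replicate 9 was out of this order, with a list share of 0.380%. Of the 50 genes, 34 to 50 had at least 10 counts in a PMN-MDSC library and 33 to 50 in a C PMN library. The ratio of ENSCAFG00000000426 to the list had a median of 1.30 in PMN-MDSC and 4.25 in C PMN, against 0.320 in C Mono. The shallow libraries differed from this. PMN-MDSC replicate 9, at 0.413, lay within the range of C Mono, and C PMN replicate 7, at 0.135, lay below it. At the median ratio of C Mono, the list in PMN-MDSC would go with a share of 0.0191% to 0.394% for ENSCAFG00000000426, and the measured share was 1.29 to 9.50 times as large (median 4.06). In C PMN it was 0.423 to 22.0 times as large (median 13.3), the lowest being the shallow replicate 7. With the share that goes with the list taken off, 0.606% ± 0.460 (SD, n = 9) was left in PMN-MDSC and 0.212% ± 0.140 (SD, n = 10) in C PMN. The difference was 0.394 percentage points. It gave p = 0.0150 in a two-sided exact permutation test, or 0.0903 adjusted over 6 tests, and the call on shares was lost. This subtraction was added after seeing the data and used a single ratio, the median of values from 0.194 to 0.565 in C Mono. C Mono were sorted as MHC II+, whereas PMN-MDSC were MHC II-, as were M-MDSC, whose median ratio was 0.583. At that ratio a larger share would go with the list, and PMN-MDSC replicate 9, at 0.413, would lie below it. In the shallow C PMN replicate 7 the subtraction left a negative share, -0.0648%. The subtraction therefore cannot decide how much of the difference goes with the list. The part of other cells in these values was not tested.

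**Figure D5:**
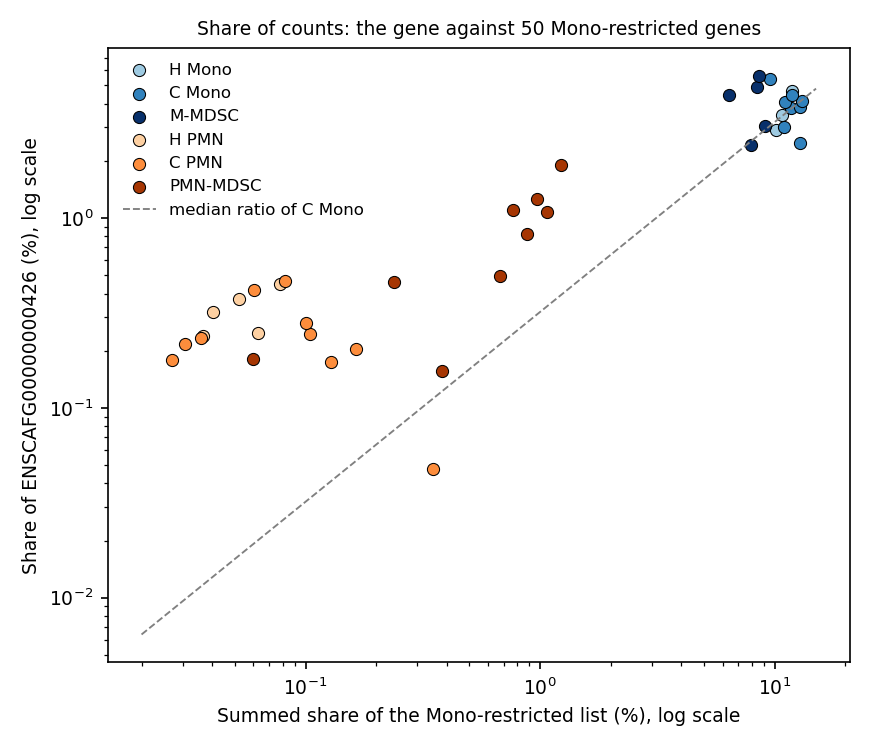
Share of ENSCAFG00000000426 (vertical, percent) against the summed share of 50 Mono-restricted genes chosen in healthy dogs (horizontal, percent), both on log scales, in 40 libraries coloured by population; the dashed line is the median ratio of C Mono libraries, 0.320. PMN-MDSC libraries lie above the line, by 1.29 to 9.50 times, and all C PMN libraries but 1 lie above it too, that library being the shallow replicate 7. The median ratio of M-MDSC libraries, 0.583, is not drawn.

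The effects of MDSC state in the lineages were also set against each other. In a fit of all 40 libraries, the change from C PMN to PMN-MDSC exceeded that from C Mono to M-MDSC by 1.46 on the log2 scale (SE 0.47, adjusted p = 0.0378 from edgeR), in a contrast that called 11.6% of 14467 genes. The monocyte arm of this contrast consists of libraries on which the gene was chosen, which favours a small effect there, so the contrast does not show that the lineages differ. The call was near the threshold and was lost, with an adjusted p of 0.0507 to 0.0823 from edgeR and differences of 1.29 to 1.49, without any one of 10 libraries, namely C Mono replicates 1 and 5, M-MDSC replicates 1, 2 and 4, C PMN replicate 3, and PMN-MDSC replicates 2, 4, 5 and 6. The effect of cancer, from H PMN to C PMN less that from H Mono to C Mono, was -0.23 (SE 0.55, adjusted p = 1.0 from edgeR), where 0% of genes were called. The difference between name prefixes in the PMN lineage, averaged over C PMN and PMN-MDSC, was 0.27 (SE 0.30, adjusted p = 0.645 from edgeR), in a contrast that called 9.31% of 15400 genes. The corresponding contrast in the monocyte lineage called 0.130%. Both shallow libraries carry PAT4694, and without them the difference in the PMN lineage was 0.28 (SE 0.29, adjusted p = 0.697 from edgeR). Their part in the 9.31% was not tested.

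The genes whose pattern was most like that of ENSCAFG00000000426 were found by Pearson's r of log2 CPM among 14466 other genes. Over all 40 libraries, 42 genes had an r above 0.9, and the highest was ENSCAFG00000017648 (r = 0.938). Its mean CPM was 1106 ± 173 (SD, n = 8) in C Mono, 318 ± 131 (SD, n = 9) in PMN-MDSC and 132 ± 55.6 (SD, n = 10) in C PMN. ENSCAFG00000017129 was next (r = 0.937), with 129 ± 13.4 CPM (SD, n = 8) in C Mono, 15.3 ± 8.88 CPM (SD, n = 9) in PMN-MDSC and 4.44 ± 2.42 CPM (SD, n = 10) in C PMN. Both likenesses came from the step between the lineages and the spread within the PMN lineage, since over the 24 PMN-lineage libraries r was 0.865 and 0.812, and over the 16 monocyte-lineage libraries it was 0.22 and -0.096. Within the monocyte lineage other genes were the nearest. ENSCAFG00000002329 had an r of 0.853 and ENSCAFG00000002465 one of 0.847 over these 16 libraries, where 6 genes exceeded 0.8 and 0 exceeded 0.9. Unlike ENSCAFG00000000426, ENSCAFG00000002329 had a lower mean CPM in C Mono, at 26.9 ± 4.99 (SD, n = 8), than in C PMN, at 96.5 ± 29.4 (SD, n = 10). These values of r are descriptions over libraries that share lineage, depth and scaling.

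A different gene led most PMN-MDSC libraries. ENSCAFG00000013763 ranked 1 by counts in 6 of 9 PMN-MDSC libraries and in 0 libraries of any other population. In those 6 libraries ENSCAFG00000000426 had shares of 0.494% to 1.90%, and in the remaining 3 it had 0.157%, 0.181% and 0.460%.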

How the data were processed

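RNA of sorted cells was made into 40 libraries with Smart-seq2, which copies full-length cDNA from low input. The authors aligned reads to CanFam3.1 and ERCC spike-in sequences with HISAT2, marked duplicates with Picard, and with featureCounts counted uniquely mapped reads on exons of Ensembl gene models. Whether duplicates were removed is not given in the sources used here, and reads were not counted as molecules. The deposited counts were not normalized. The CPM values deposited by the authors were the counts divided by the library's total, which was checked on the values. The deposited TPM values use 1 fixed length per gene. A copy of the CPM table was left out, as were the spike-ins, which were at most 0.000275% of counts.

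Libraries were grouped by their labelled sample type. Any pair of libraries of a population differed by more than sampling noise (a chi-square of at least 96.7 per degree of freedom). Counts were fitted with edgeR 4.0.16 (filterByExpr, TMM, quasi-likelihood test) in R 4.3.3, and Benjamini-Hochberg adjusted p-values of at most 0.05 over all genes tested were called. The alternatives used DESeq2 1.42.0 and limma 3.58.1. Shares were compared by exact permutation tests in scipy 1.17.1. Log2 CPM for spread and likeness used a prior count of 2. The edgeR script was tested on simulated data. The gene, the lists and the tests were chosen with earlier results of these data known. Genes named beside ENSCAFG00000000426 are the next in share, rank or likeness, of which at most 2 are given for each likeness because identifiers had no names. Lists of marker symbols could not be used for the same reason.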

Additional observations from a re-analysis of the deposited data

Results flagged for a closer look

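The contrast of the MDSC effect on ENSCAFG00000000426 between the PMN and the monocyte lineage passed the threshold, at 1.46 on the log2 scale (SE 0.47, adjusted p = 0.0378 from edgeR in a fit of 40 libraries). Its call was lost without any one of 10 libraries (adjusted p = 0.0507 to 0.0823 from edgeR), and its monocyte arm is made of libraries on which the gene was chosen, which favours a small effect there. In the PMN lineage 6 of 9 PMN-MDSC libraries had a larger share of counts than any C PMN library, and in the monocyte lineage the shares of M-MDSC and C Mono overlapped. By Dixon's test on untransformed values, no library stood apart from its population for the share, the TPM or the rank by counts. The test covered the 5 populations of 5 to 10 libraries. It was not run on log values, where a low library has more room to stand apart. The shallow C PMN replicate 7 had a share of 0.0474%, and the next C PMN library had 0.174%. For the rank in C Mono and M-MDSC the outcome of Dixon's test was fixed in advance, since the gene was chosen for ranking 1 in each of these libraries.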

How the results depend on the processing

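For the 6 fold changes, alternatives, where the libraries allowed them, were size factors of DESeq2 or library size in place of TMM, no filter or 10 counts in each library as the minimum, the Wald test of DESeq2, limma voom, all libraries in 1 fit, the name prefix as a term, each prefix alone and each library left out. The change between PMN-MDSC and C PMN was called in 10 of 11 alternatives, the exception being prefix PAT4694 alone (1.37), which holds both shallow libraries. That between PMN-MDSC and H PMN became called with DESeq2's test (1.57), limma voom (1.48), all libraries in 1 fit (1.42), prefix GAR4079 alone (1.43) and without libraries under 10000000 counts (1.44), and without PMN-MDSC replicate 3 or 9, and ranged from 1.29 to 1.60 with single libraries left out. M-MDSC against C Mono reversed with prefix GAR4079 alone (-0.028). With single libraries left out, C Mono against H Mono ran from -0.032 to 0.35 and C PMN against H PMN from -0.19 to 0.034. The contrast of the MDSC effect between lineages lost its call with library size alone (1.69, adjusted p = 0.0502 from edgeR) and ran from 1.29 to 1.59 over 40 fits that each left out 1 library, 10 of which lost the call. For the shares, PMN-MDSC against C PMN lost its call as log2(TPM + 1) (difference 1.5 on the log2 scale, permutation test) and with the Mono-restricted list taken off (0.394 percentage points), an alternative added after seeing the data. With single libraries left out it ran from 0.448 to 0.666 and lost the call in 5 of 19 tests, M-MDSC against C Mono from -0.204 to 0.594, and C Mono against H Mono from -0.155 to 0.716, ranges that cross 0. The causes were not tested. No paired analysis was possible because the labels carry no replicate number or dog. Without the 2 shallow libraries the SE fell from 0.38 to 0.34 for PMN-MDSC against C PMN, and without PMN-MDSC replicate 9 from 0.51 to 0.44 for PMN-MDSC against H PMN, although fewer libraries were fitted.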
